A study of Mus musculus with 16 samples.

Results

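The nuclear genome encodes most subunits of the 5 enzyme complexes of mitochondrial oxidative phosphorylation. Complex I (NADH dehydrogenase) and complex II (succinate dehydrogenase) pass electrons to ubiquinone, complex III passes them to cytochrome c, and complex IV (cytochrome c oxidase) passes them to oxygen. Complexes I, III and IV pump protons across the inner membrane, and complex V (ATP synthase) uses the returning protons to make ATP. The subunits work in fixed proportions, and a few of them exist as paralogs that are used in particular tissues or under low oxygen. The genes described here were chosen by symbol: protein-coding rows of the count table named Ndufa, Ndufb, Ndufc, Ndufs or Ndufv with a number, any Uqcr, Cox4 to Cox8 with a letter, any Atp5, and Sdha to Sdhd. The rule took 85 genes of the 55536 rows, with 37 in complex I, 4 in complex II, 8 in complex III, 18 in complex IV and 18 in complex V. The rule itself used no measured value, but the members were chosen with earlier results of these data known. Another 12 rows with such names are pseudogenes or noncoding and were left out, and Ndufab1, Cyc1 and Cycs fall outside the rule by name. The assignment follows the symbol, so Ndufa4, which is now known as a complex IV subunit, stands with complex I, as does its paralog Ndufa4l2.

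The counts come from RNA-seq of mouse bone marrow, of samples labelled MSC and of tumors. Each tissue was taken from mice labelled KLF WT and from mice labelled KLF K74R, an allele that puts arginine in place of lysine in a KLF protein. KLF genes encode zinc-finger transcription factors, and the labels do not say which member carries the change. The titles of the K74R samples read KO. Bone marrow and tumor had 3 libraries of each genotype and MSC had 2 of each, 16 libraries in all. The tumors were grown from MC38, a mouse colon adenocarcinoma line, and the genotype in the label is that of the mouse, so counts of the line and of the host are mixed. The labels give no age, strain or sex, do not expand MSC, and do not say that replicates came from separate animals or cultures. Any p-value here thus reflects how far these libraries scatter, whether that scatter is biological or technical. Totals ran from 14067259 to 18923751 per library. Levels are given in CPM, the counts divided by the scaled library total. A floor of 3 counts in a single library lies between 0.159 and 0.213 CPM, and covers counting error only. Replicate libraries differed beyond sampling noise in every group, with a chi-square per degree of freedom of 6.86 to 19.6 within bone marrow and tumor groups and of 51.4 and 58.7 within the MSC groups.

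The labelled tissues were set against marker genes. A list of 11 mesenchymal markers summed to between 12804 and 17351 CPM in the MSC libraries, with none of its genes at 0 counts. In WT bone marrow the list summed to between 485 and 1335 CPM. Cxcl12 alone was 5092 and 8905 CPM in WT MSC. In WT MSC against WT bone marrow 10 of the 11 had a log2 fold change above 0. Lepr went the other way, at 2.23 to 15.6 CPM in MSC against 27.7 to 78.6 CPM in bone marrow. The MSC libraries also held 8 macrophage markers at 2359 to 8708 CPM in sum, none of them at 0. In the tumors 8 epithelial markers summed to between 5.74 and 10 CPM, with up to 3 of them at 0. In bulk samples fewer cells of a type and less RNA per cell cannot be told apart.

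Promoter sequence was available for 68 of the 85 genes, from RefSeq on GRCm38.p6, as the 250 bases before and the 50 bases after each start. The motif of NRF1, a factor known for activating respiratory chain genes, stood in 17 of the 68 promoters (25%) against 5.19% of all 27025 genes in the table and 7.17% of its 17492 protein-coding genes. The letters AAGATGGC, bound by YY1, stood in 14.7% of the members, 3.19% of all genes and 3.57% of protein-coding genes, and TCAAGGTCA, bound by estrogen-related receptors (ERR), in 2.94%, 0.466% and 0.377%. For the ETS letters CCGGAAGT the shares were 7.35% and 4.31%, and 5.69% among protein-coding genes. The KLF letters CCNCNCCC stood in 57.4% of the members, in 51.9% of all genes and in 58.7% of protein-coding genes. All motifs were searched on both strands, and a match describes letters, not a bound site. The next 5 promoters, 1 for each complex, were picked from the 17 with an NRF1 match, and each holds a second match as well. They do not stand for all 17. Other members with an NRF1 match, such as Ndufa11, Sdha and Atp5k, hold no YY1, ERR or ETS match. Capitals mark matches to NRF1, YY1, ERR or ETS, and no match lies on another here. Ndufs6 (complex I, zinc-binding subunit) is at chr13:73328433-73328732 on the minus strand, Sdhd (complex II, membrane anchor) at chr9:50603800-50604099 on the minus strand, Uqcrc1 (complex III core protein) at chr9:108936398-108936697 on the plus strand, Cox6a1 (complex IV) at chr5:115348909-115349208 on the minus strand and Atp5g3 (complex V, subunit c) at chr2:73911277-73911576 on the minus strand.
Ndufs6: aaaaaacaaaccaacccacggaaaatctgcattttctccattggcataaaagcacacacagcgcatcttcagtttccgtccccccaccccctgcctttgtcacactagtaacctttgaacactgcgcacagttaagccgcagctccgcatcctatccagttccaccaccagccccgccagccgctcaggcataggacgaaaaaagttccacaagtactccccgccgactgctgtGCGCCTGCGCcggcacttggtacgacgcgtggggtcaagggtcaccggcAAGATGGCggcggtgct
Sdhd: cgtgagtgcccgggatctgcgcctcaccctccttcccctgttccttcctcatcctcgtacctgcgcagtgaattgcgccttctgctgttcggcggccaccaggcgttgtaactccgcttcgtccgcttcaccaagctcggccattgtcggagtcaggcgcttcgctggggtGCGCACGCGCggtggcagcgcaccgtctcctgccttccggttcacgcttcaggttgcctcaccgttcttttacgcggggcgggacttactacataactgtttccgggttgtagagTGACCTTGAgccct
Uqcrc1: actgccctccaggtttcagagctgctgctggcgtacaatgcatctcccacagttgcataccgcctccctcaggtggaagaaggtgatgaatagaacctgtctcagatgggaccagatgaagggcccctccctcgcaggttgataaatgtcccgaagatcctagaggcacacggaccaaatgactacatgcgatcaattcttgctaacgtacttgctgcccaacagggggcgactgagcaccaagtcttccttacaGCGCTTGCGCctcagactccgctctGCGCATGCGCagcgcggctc
Cox6a1: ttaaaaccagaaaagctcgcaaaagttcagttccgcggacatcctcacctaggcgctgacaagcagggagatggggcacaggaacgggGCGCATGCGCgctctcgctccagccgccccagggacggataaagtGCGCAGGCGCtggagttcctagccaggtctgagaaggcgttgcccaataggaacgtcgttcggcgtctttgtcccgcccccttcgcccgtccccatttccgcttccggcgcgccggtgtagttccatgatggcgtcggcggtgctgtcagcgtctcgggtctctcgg
Atp5g3: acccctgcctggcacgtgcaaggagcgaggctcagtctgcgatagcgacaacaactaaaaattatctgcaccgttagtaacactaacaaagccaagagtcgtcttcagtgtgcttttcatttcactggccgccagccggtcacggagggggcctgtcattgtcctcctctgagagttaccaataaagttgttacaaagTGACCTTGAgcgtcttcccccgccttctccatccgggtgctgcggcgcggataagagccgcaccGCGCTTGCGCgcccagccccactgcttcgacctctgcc
Besides NRF1, the Ndufs6 promoter holds a YY1 match, the Sdhd and Atp5g3 promoters hold an ERR match each, and the Uqcrc1 and Cox6a1 promoters hold a second NRF1 match. Sdhd and Atp5g3 were the only members with an ERR match among the 68.

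Of the 85 genes, 83 had at least 1 count in some library. Cox8c, a testis isoform, and the second identifier annotated as Atp5o (ENSMUSG00000116933) were at 0 in all 16. The second Atp5o model lies wholly inside other gene models, so its reads cannot be assigned. Member genes are short, with a median exon length of 1495 bases against 3488 for the protein-coding genes of the table. Many have processed pseudogenes. For 25 members at least 10% of the 50-base stretches of the exons occur in another gene, the highest shares among those described with values below being 43.4% for Uqcrb, 38.3% for Atp5g2 and 37.6% for Atp5f1, and their counts are uncertain to that extent.

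The summed level of all members was highest in tumors. In WT bone marrow it was 6139, 5960 and 7037 CPM, in WT MSC 4454 and 4611 CPM, and in WT tumors 6963, 7069 and 7337 CPM. In the K74R libraries it was 5712, 5772 and 5094 CPM in bone marrow, 6937 and 5643 CPM in MSC, and 7196, 7613 and 7606 CPM in tumors. The WT MSC libraries were thus the lowest of all 16, and the K74R MSC libraries stood within the range of bone marrow. WT MSC was also the lowest of the 6 groups in complexes I, III, IV and V, with WT MSC means of 1226 ± 28.8, 397 ± 9.97, 695 ± 20.1 and 1810 ± 95.5 CPM (SD, n = 2) and WT tumor means of 1653 ± 46.0, 697 ± 24.2, 1042 ± 28.5 and 3267 ± 106 CPM (SD, n = 3). Complex II varied less, from 395 ± 13.8 CPM (SD, n = 3) in K74R bone marrow to 467 ± 59.2 CPM (SD, n = 2) in K74R MSC.

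**Figure D1:**
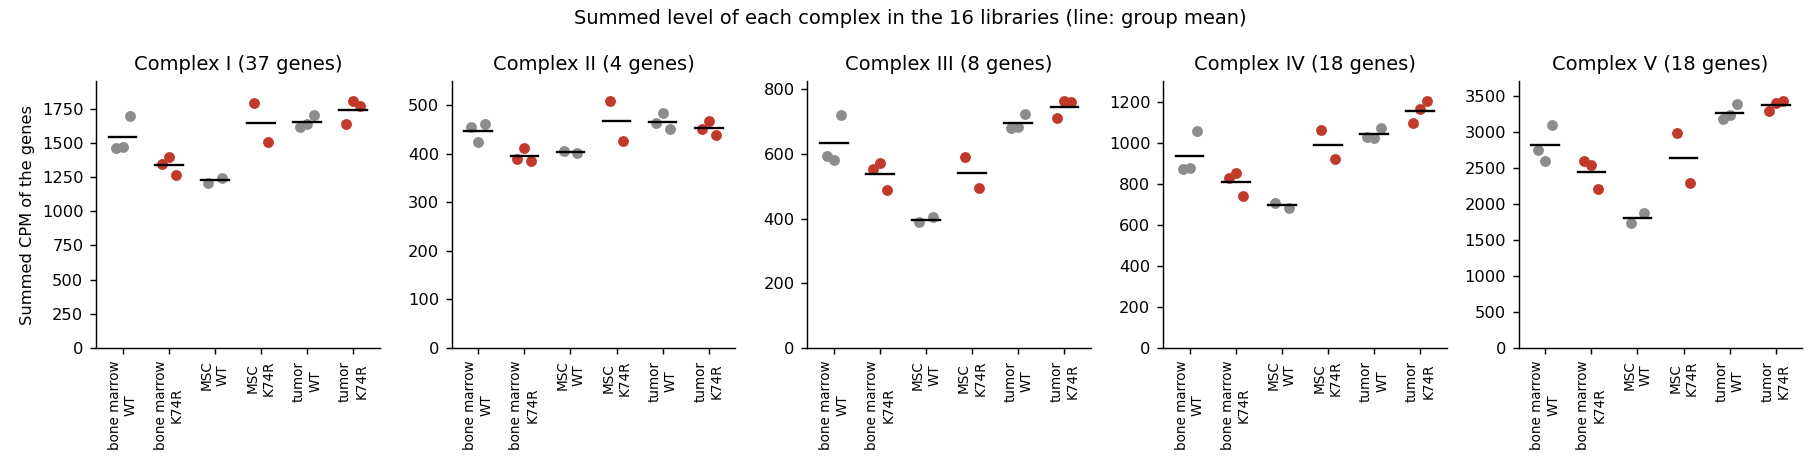
Summed CPM of the member genes of each complex (y axis, from 0) in the 16 libraries, by tissue and genotype (x axis). Points are libraries, grey for WT and red for K74R, and lines are group means. WT MSC is the lowest group in complexes I, III, IV and V, and its K74R counterpart stands above it in all 5.

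Between genes, levels were compared per kilobase of exon. The complex V catalytic subunits Atp5a1 (alpha) and Atp5b (beta) stood at 206 and 195 CPM per kilobase in WT bone marrow and at 165 and 312 in WT tumors. Per kilobase of the median coding transcript, Atp5b was the higher in both tissues, with 432 against 250 for Atp5a1 in bone marrow and 691 against 201 in tumors, so the order of the pair in bone marrow depends on the length used. Atp5b was 831, 748 and 901 CPM in WT bone marrow, 472 and 553 CPM in WT MSC, and 1288, 1315 and 1369 CPM in WT tumors. The highest genes of the other complexes per kilobase in WT bone marrow were Ndufa4 (62.3), Sdhd (80.8), Uqcrh (94), the hinge protein of complex III, and Cox6b1 (141). In WT tumors they were Ndufa4 (74.2), Sdhd (75.8), Uqcrb (105) and Cox4i1 (156), and in WT MSC they were Ndufa8 (51.5), Sdha (50.6), Uqcrh (60.2) and Cox6b1 (129 CPM per kilobase). By the median coding transcript the highest genes of complexes II and IV were Sdha and Cox4i1 in all 3 WT tissues. By that length Ndufs1 led complex I in WT MSC and, at 191 against 187 for Ndufa4, in WT bone marrow. Uqcrc1 led complex III in WT MSC, and Uqcrh led it in WT tumors. Ndufa4 was 21.5 CPM per kilobase of exon in WT MSC. At the low end, leaving aside the tissue-restricted paralogs, the accessory subunit gene Ndufb2 lay between 0.775 and 1.05 CPM per kilobase in the 3 WT tissues. Per kilobase, the median member of complex III was the highest of the 5 complexes in WT bone marrow at 56.6 ± 9.22 and complex I the lowest at 23.5 ± 1.66 CPM per kilobase (SD, n = 3). Dividing by the median coding transcript instead put complex V ahead of complex III there, so this order depends on the length used.

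WT tissues were compared in a model of the 8 WT libraries with edgeR's quasi-likelihood test and a Benjamini-Hochberg adjusted p of 0.05 over all genes. Most genes differ between such tissues: 73.5% of all genes were called between tumor and bone marrow, 70.8% between MSC and bone marrow and 67.3% between tumor and MSC. Of 81 members tested, 25 were higher and 11 lower in tumor than in bone marrow (37.1% and 36.4% of all genes), with a median log2 fold change of 0.12. In MSC against bone marrow 4 were higher and 46 lower (34.5% and 36.3% of all genes), with a median of -0.44 (all genes, -0.06), and in tumor against MSC 53 were higher and 5 lower (34.5% and 32.8% of all genes), with a median of 0.54 (all genes, 0.05). All 8 complex III genes and 14 of 17 complex V genes were higher in tumor than in MSC. The 3 comparisons share libraries and are given side by side.

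These tissue differences depended on the genotype used and on offsets for length and GC content together. In the K74R libraries, which share none with the WT fit, MSC against bone marrow gave 30 members higher and 5 lower (34.1% and 35.4% of all genes) with a median of 0.16, so the direction turned. Tumor against bone marrow then gave 42 higher and 3 lower (38.3% and 37.6% of all genes, median 0.31), and tumor against MSC 23 higher and 13 lower (31.4% and 30.5% of all genes, median 0.16). With offsets for the trend of each library on exon length and GC content, MSC against bone marrow in WT gave 26 higher and 25 lower (33.8% and 38.5% of all genes) with a median of -0.003.

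**Figure D2:**
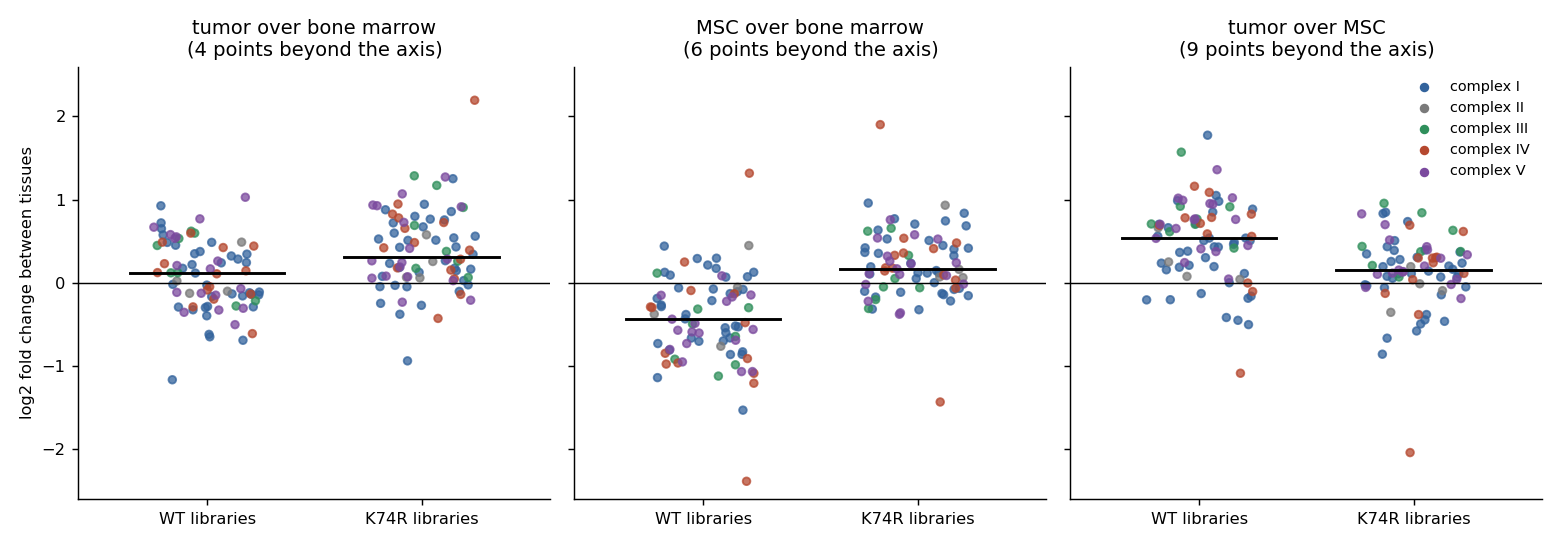
Log2 fold change of each tested member between tissues (y axis) from the WT libraries and, separately, from the K74R libraries (x axis), coloured by complex, with lines at the medians. Numbers above the panels count points outside the axis. The median of MSC over bone marrow lies at -0.44 in WT and at 0.16 in K74R.

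Among the largest differences between WT tumor and WT bone marrow, Atp5d, the delta subunit of ATP synthase, was 67.1, 54.4 and 63.7 CPM in bone marrow and 129, 121 and 130 CPM in tumors. The groups did not overlap and the log2 fold change was 1.03 (SE 0.10, adjusted p = 1.21e-05). Ndufa12, an accessory subunit of complex I, was 24.3, 26.4 and 33 CPM in bone marrow and 48.5, 49.8 and 61.8 CPM in tumors, a log2 fold change of 0.93 (SE 0.14, adjusted p = 0.000233). In the other direction Ndufb11, an X-linked accessory subunit, was 47.0, 48.5 and 63.4 CPM in bone marrow and 24.9, 24.7 and 21.6 CPM in tumors. Its log2 fold change was -1.17 (SE 0.13, adjusted p = 3.15e-05). Ndufa3 was lower in tumor by the same test, with a log2 fold change of -0.69 (SE 0.13, adjusted p = 0.00092), but not with the length and GC offsets (-0.08, adjusted p = 0.627). Of the 37 complex I genes 11 were called higher and 6 lower in tumor, where 37.1% and 36.4% of all genes were.

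Leaving aside the scarce paralog Cox6a2, Ndufa4 and Cox7b had the lowest log2 fold changes of WT MSC against WT bone marrow. Ndufa4 was 72.0, 82.3 and 104 CPM in bone marrow, 35.7 and 23.7 CPM in MSC, and 95.8, 102 and 110 CPM in tumors. MSC were below both other tissues without overlap, with log2 fold changes of -1.53 (SE 0.20, adjusted p = 9.21e-05) against bone marrow and of 1.77 (SE 0.20, adjusted p = 4.03e-05) for tumor against MSC. Cox7b, an X-linked subunit of complex IV, was 75.6, 74.3 and 104 CPM in bone marrow and 42.3 and 30.8 CPM in MSC, a log2 fold change of -1.21 (SE 0.18, adjusted p = 0.00021). For MSC against bone marrow neither difference passed the threshold in the K74R libraries, where the log2 fold changes were -0.07 for Ndufa4 (adjusted p = 0.677) and 0.18 for Cox7b (adjusted p = 0.280), and for Cox7b the length and GC offsets also ended the call (0.00, adjusted p = 0.997). Uqcrb was 57.3, 62.3 and 80.3 CPM in bone marrow, 37.2 and 23.9 CPM in MSC, and 87.1, 96.5 and 91.3 CPM in tumors. For tumor against MSC its log2 fold change was 1.57 (SE 0.20, adjusted p = 9.18e-05). Sdhc, a ubiquinone-binding membrane anchor, was the complex II gene that was higher in WT MSC than in bone marrow, at 81.7 and 85.4 against 59.6, 59.8 and 64.2 CPM (log2 fold change 0.45, SE 0.09, adjusted p = 0.0016).

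The tissue-restricted paralogs of complex IV and Ndufa4l2 set the tissues apart most. Cox4i2, at chr2:152754173-152765037 on the plus strand of GRCm38, encodes the subunit 4 isoform known from lung and from low oxygen. It was 4.55 and 7.86 CPM in WT MSC, 23.8 and 24.9 CPM in K74R MSC, and at most 0.696 CPM in any bone marrow or tumor library. Against WT bone marrow the log2 fold change of WT MSC was 4.14 (SE 0.44, adjusted p = 1.97e-05), and for WT tumor against WT MSC it was -4.75 (SE 0.45, adjusted p = 1.03e-05). The ubiquitous Cox4i1 was 141 and 156 CPM in WT MSC and 201 and 160 CPM in K74R MSC. Per kilobase, Cox4i2 made up 7.49% ± 2.17 of the pair in WT MSC and 21.2% ± 3.26 in K74R MSC (SD, n = 2), against 0.425% in WT bone marrow and 0.183% in WT tumors (n = 3). With the median coding transcript as length the shares were 4.04% and 12.2%. The 2 genotypes did not overlap in the exon-based share, which ran from 5.95% to 9.02% in WT and from 18.8% to 23.5% in K74R MSC.

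Ndufa4l2, at chr10:127514967-127517154 on the plus strand, is a paralog of Ndufa4 known as a target of the hypoxia-inducible factor. It was 20.6 and 44.9 CPM in WT MSC, 107 and 123 CPM in K74R MSC, between 1.14 and 4.53 CPM in the 6 tumors, and 2 counts in all in WT bone marrow and 0 counts in K74R bone marrow. From 998 and 2 counts WT MSC exceeded WT bone marrow 702-fold, with a 95% exact counting interval of 194 to 5801. WT tumors exceeded WT bone marrow 45.1-fold (12.2 to 376). Both intervals come from counts pooled over each group, so they cover counting error only and leave out the scatter between libraries. K74R MSC were at least 1677-fold higher than K74R bone marrow, against a floor of 3 counts over the group. For WT tumor against WT MSC the log2 fold change was -4.00 (SE 0.42, adjusted p = 2.25e-05). Per kilobase, Ndufa4l2 held 42.1% and 70.5% of the Ndufa4 pair in the WT MSC libraries and 64.7% and 72.5% in the K74R MSC libraries. These ranges overlapped. With the median coding transcript as length the share ran from 22.1% to 48.3% in WT and from 41.7% to 50.7% in K74R MSC, so which of the pair is the larger depends on the length used. In bone marrow and tumor Ndufa4 held at least 95.7% of the pair per kilobase of exon.

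Cox6b2, at chr7:4751792-4753094 on the minus strand, is known as the testis form of subunit 6B. In these data Cox6b2 was highest in bone marrow and also present in MSC. It was 16.3, 13.4 and 18.1 CPM in WT bone marrow, 8.30 and 6.64 CPM in WT MSC, and 0.0504, 0.0986 and 0.0557 CPM in WT tumors. Tumors lay below the floor of a single library, and the log2 fold change of tumor against bone marrow was -7.71 (SE 0.32, adjusted p = 3.53e-08), and that of tumor against MSC -6.62 (SE 0.34, adjusted p = 2.43e-07). Testis markers (Prm1, Prm2, Tnp1, Odf1 and Akap4) summed to at most 1.11 CPM in bone marrow, with 4 of 5 at 0 in every one of its libraries. Cox6b1 exceeded Cox6b2 in all tissues, and Cox6b2 made up 9.24% ± 0.804 of the pair per kilobase in WT bone marrow and 10.7% ± 0.894 in K74R bone marrow (SD, n = 3). By the median coding transcript these shares were 15.1% and 17.3%.

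The paralogs known from heart and skeletal muscle were scarce. Cox6a2 was 1.53, 2.51 and 1.53 CPM in WT bone marrow, 0.615 and 0.0677 CPM in WT MSC, and 2.17, 2.12 and 3.39 CPM in WT tumors. Its log2 fold changes were -2.39 (SE 0.64, adjusted p = 0.0077) for WT MSC against bone marrow, which the length and GC offsets took to -1.15 (adjusted p = 0.145), and 2.83 (SE 0.63, adjusted p = 0.00287) for tumor against MSC. It reached 8.40 CPM in K74R tumor 3, the highest of the 16 libraries. Cox7a1 stayed between 0.197 and 2.86 CPM, with its highest value in K74R MSC 2, and Cox8b was at 0 in all 4 MSC libraries and 1.97 CPM in WT tumor 1, beside Cox8a at 91.8 CPM in that tumor. Skeletal muscle markers (14 genes) summed to between 5.82 and 119 CPM in the tumors, and to 11.4 CPM in K74R tumor 3, where Cox6a2 was highest. In WT tumor 1, where Cox8b was highest, the skeletal muscle markers summed to 78.6 CPM. There 8 brown and white adipocyte markers summed to 179 CPM, with Ucp1 at 16.6 and Cidea at 5.30 CPM. In the other tumors the adipocyte list summed to at most 74.2 CPM. The part of both lists in these values was not tested. Cox7b2, a testis paralog, had 18 counts over the WT tumors and 14 over the K74R tumors and 0 in bone marrow and MSC. WT tumors were at least 4.51-fold higher than WT bone marrow and at least 3.21-fold higher than WT MSC, against 3 counts over each group.

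**Figure D3:**
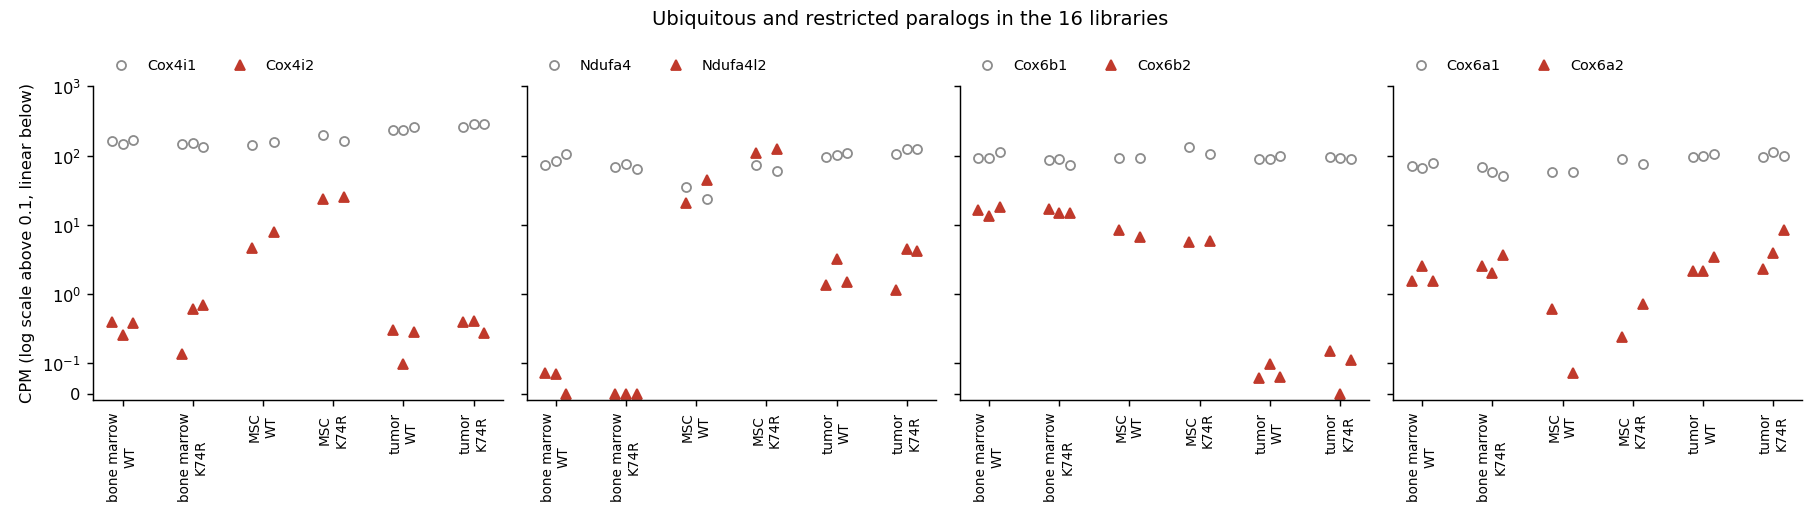
CPM of 4 paralog pairs in the 16 libraries (y axis, logarithmic above 0.1 and linear below), with open circles for the widely expressed gene and red triangles for the restricted paralog, by tissue and genotype (x axis). Cox4i2 and Ndufa4l2 are highest in MSC, Cox6b2 in bone marrow, and Ndufa4l2 exceeds Ndufa4 in 3 of 4 MSC libraries.

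Other paralog sets were shared more evenly. Subunit c of ATP synthase, which forms the rotor ring, is made from Atp5g1, Atp5g2 and Atp5g3, whose mature proteins are identical. Per kilobase, Atp5g3 held between 48.4% and 53.5% of the set in the 6 group means, Atp5g2 between 37.0% and 42.1% and Atp5g1 between 8.61% and 10.2%. The Atp5g1 share depends on the length used and lay between 5.84% and 6.95% by the median coding transcript. Cox7a2 held 56.1% ± 4.25 of its set in WT bone marrow and 36.1% ± 1.24 in WT MSC, where Cox7a2l, known for its role in joining complexes III and IV into supercomplexes, held 61.8% ± 2.72 (SD, n = 3 and 2). In K74R MSC the share of Cox7a2 was 45.3% ± 0.185 (SD, n = 2), above both WT MSC libraries.

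In MSC, K74R against WT, 77 of 80 tested members had a log2 fold change above 0, with a median of 0.41 against 0.00 for all genes, of which 49.9% were below 0. Within groups, the library medians of the members' log2 CPM had an SD of 0.146. Of the members, 1 passed the adjusted threshold, Cox4i2, and none was called lower. Of all genes 3.34% were called, 2.05% higher and 1.29% lower. At an unadjusted p under 0.05 there were 24 members higher and none lower, against 13.5% of all genes higher and 12.5% lower. In 67 members both K74R libraries were above both WT libraries and in 2 both were below, which held for 30.4% and 29.0% of all genes. The medians by complex were 0.33 for complex I, 0.32 for complex II, 0.43 for complex III, 0.57 for complex IV and 0.49 for complex V. All 17 tested genes of complex V and all 8 of complex III had both K74R libraries above both WT libraries.

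The number of members called differed between fits. DESeq2 called 7 members higher, against 6.83% of all genes (Cox4i2, Ndufa4l2, Ndufa4, Cox7b, Cox7a2, Atp5g3 and Atp5mpl), and limma-voom called Cox4i2 alone. A model of all 16 libraries with a common spread called 43 of 82, against 13.2% of all genes called higher in it. With a spread of its own for each tissue, limma-voom on the 16 libraries called 13, against 6.31% of all genes called higher. With no filter on low counts edgeR called 7, a fit for which the share of all genes is not given.

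**Figure D4:**
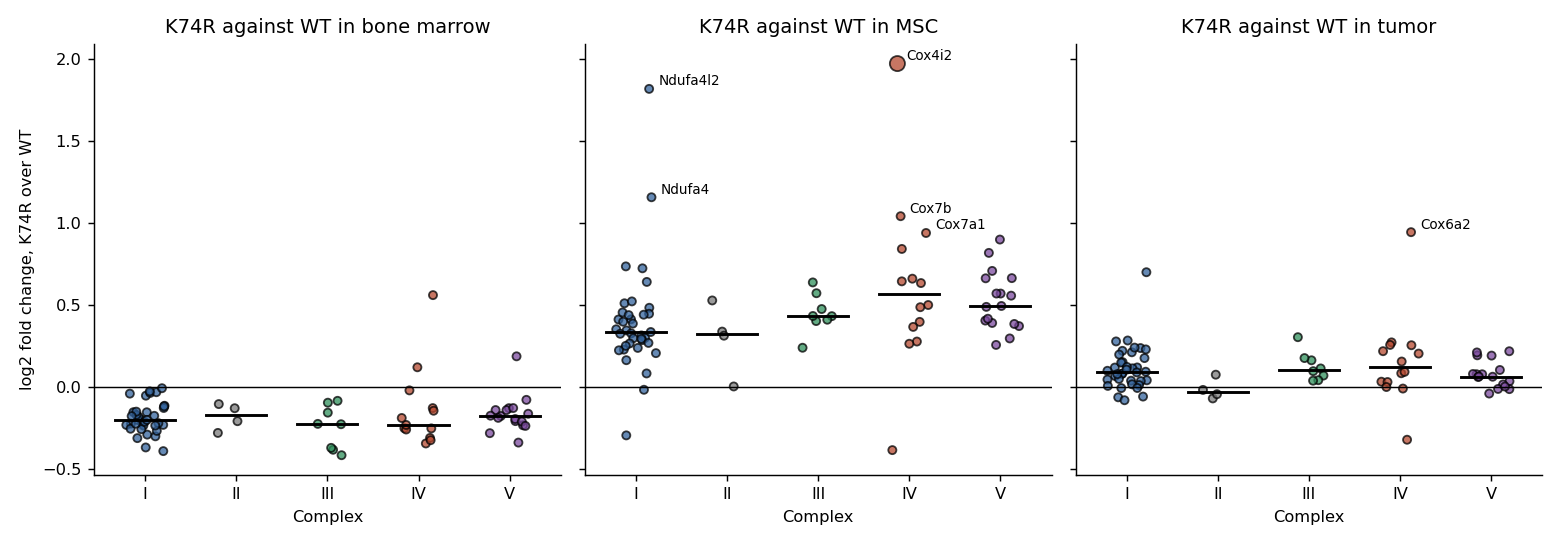
Log2 fold change of K74R over WT (y axis) for each tested member, by complex (x axis) and tissue (panels), with lines at the median of each complex. The large point is Cox4i2, the member past the threshold, and labels mark other far points. Points lie mostly below 0 in bone marrow, above 0 in MSC and close above 0 in tumor.

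Cox4i2, with the library values given above, had a log2 fold change of 1.97 (SE 0.31, adjusted p = 0.0382). Leaving out K74R library 1 or 2 left its size at 2.01 and 1.94 and ended the call (adjusted p = 0.149 and 0.0682), with the remaining library assumed to vary like the others. Ndufa4l2 had a log2 fold change of 1.82 (SE 0.37) and missed the threshold at an adjusted p of 0.0588. For Cox7b the WT libraries gave 42.3 and 30.8 CPM against 76.3 and 75 in K74R MSC, and the K74R libraries held Ndufa4 at 73.8 and 59.2 CPM, against 35.7 and 23.7 in WT. Both K74R libraries were above both WT libraries for each gene, with log2 fold changes of 1.04 (SE 0.22, adjusted p = 0.0613) and 1.16 (SE 0.27, adjusted p = 0.0729).

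In complex V the smallest p-values belonged to Atp5mpl, a small membrane subunit, and Atp5g3. The WT libraries held Atp5mpl at 27.1 and 22.5 CPM, those of K74R at 42.2 and 50.6 (log2 fold change 0.90, SE 0.21, adjusted p = 0.0741). For Atp5g3 the WT values were 77.0 and 80.2 CPM, those of K74R 160 and 118 (0.82, SE 0.21, adjusted p = 0.0914). K74R library 1 was the higher of the pair for Atp5g3 and library 2 for Atp5mpl. In complex III, Uqcrq gave 26.9 and 34.3 CPM in WT libraries and 49.3 and 41.9 in K74R libraries (0.57, SE 0.21, adjusted p = 0.165), and the Rieske iron-sulfur protein gene Uqcrfs1 gave 46.5 and 50.9 against 74.8 and 60.9 CPM (0.47, SE 0.19, adjusted p = 0.19). In complex II the membrane anchor Sdhd gave 61.4 and 55.7 in WT libraries and 92.8 and 76.7 in K74R libraries, all in CPM (0.53, SE 0.19, adjusted p = 0.155). Sdha, the flavoprotein that oxidises succinate, gave 210 and 208 against 224 and 197 CPM, and its log2 fold change was 0.00 (SE 0.18, adjusted p = 0.996). Sdhc, with 81.7 and 85.4 against 118 and 94.3 CPM, and Sdhb, with 52.9 in both WT libraries against 74.5 and 57.3 CPM, had log2 fold changes of 0.34 (SE 0.19, adjusted p = 0.317) and 0.31 (SE 0.20, adjusted p = 0.376). The members with a value below 0 were Cox6b2 (-0.39, SE 0.28, adjusted p = 0.439), Ndufb2 (-0.30, SE 0.31, adjusted p = 0.596) and Ndufa6 (-0.02).

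The 2 K74R MSC libraries did not move alike. Without K74R library 1 the median log2 fold change of the members was 0.28, and without K74R library 2 it was 0.55. The length and GC offsets lowered it from 0.41 to 0.28. WT libraries left out in turn gave 0.40 and 0.40.

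**Figure D5:**
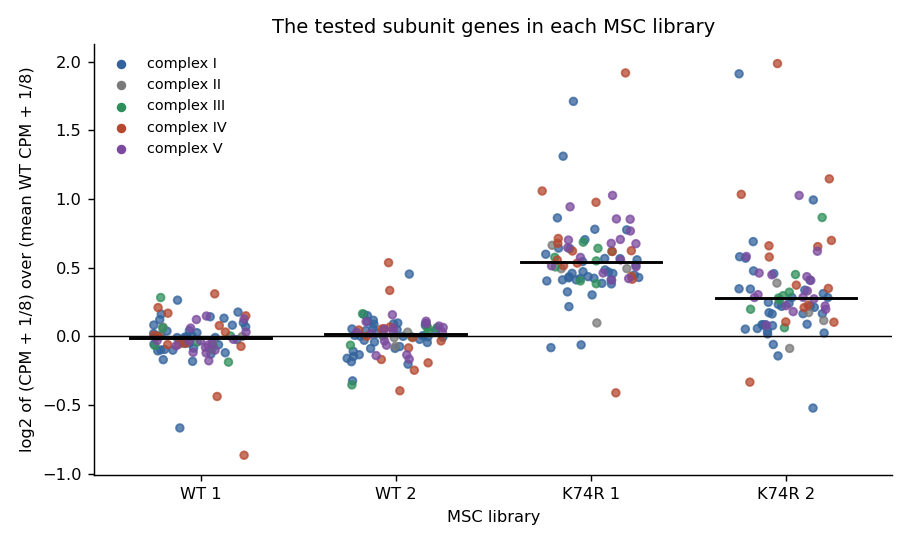
Log2 of CPM over the WT mean, with a small constant added to both (y axis), for each tested member in each of the 4 MSC libraries (x axis), coloured by complex, with lines at the library medians. Both K74R libraries lie mostly above 0, K74R 1 further than K74R 2, while the WT libraries centre on 0.

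Other measures moved with genotype in the same MSC libraries. The 7 cycling genes summed to between 206 and 344 CPM in WT and to between 943 and 1364 CPM in K74R, with 5 of 7 called higher and none at 0. The 8 macrophage markers summed to between 6870 and 8708 CPM in WT and to between 2359 and 4325 CPM in K74R, with C1qa called lower. The 8 adipocyte markers summed to between 48.1 and 65.6 CPM in WT and to between 618 and 643 CPM in K74R, with Fabp4 and Plin1 called higher and 3 or 4 of them at 0. Another 6 genes, commonly induced in hypoxia, were chosen after earlier results of these data were known. Of these, 5 were higher in both K74R MSC libraries than in both WT ones, which held for 30.4% of all genes. Pdk1 (pyruvate dehydrogenase kinase) stood at 61.1 and 141 CPM in WT against 231 and 225 in K74R. Bnip3 (a mitophagy receptor) stood at 68.9 and 159 against 251 and 256 CPM, and Slc2a1 (a glucose transporter) at 59.1 and 130 against 149 and 163. Vegfa and Car9 made up the 5, while Egln3 overlapped, at 63.3 and 223 CPM in WT against 137 and 206 in K74R. The part of these genes in the values of the respiratory chain was not tested. Short housekeeping mRNAs outside the chain (20 genes) had a median log2 fold change of 0.68, with 19 above 0 and Sec61g called higher, beside a median of 0.41 for the members.

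Genes that work with the chain stood as follows in MSC. Of the 14 genes of protein import and outer membrane all had a log2 fold change above 0 (median 0.55), of 13 citrate cycle genes 12 (0.44), of 26 mitochondrial ribosomal proteins 25 (0.29), and of 17 complex I assembly factors 12 (0.39), with none of them called. The 13 mitochondrially encoded genes, which make the core subunits that these nuclear genes join, had a median of 0.10, with 9 above 0 and none called. Among 17 biogenesis regulators (Ppargc1a, Nrf1, Esrra, Tfam and others) the median was 0.02, and none was called.

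In bone marrow, K74R against WT, the members lay on the other side of 0. Of 78 tested, 75 had a log2 fold change below 0, with a median of -0.20 against 0.00 for all genes, of which 50.1% were below 0. No member passed the threshold with edgeR, DESeq2 or limma-voom, where edgeR called 0.773% of all genes, 0.511% higher and 0.262% lower. The lowest adjusted p was 0.132. Within groups, the library medians of the members' log2 CPM had an SD of 0.141, beside the median shift of -0.20. At an unadjusted p under 0.05 there were 24 members lower and none higher, against 7.99% of all genes lower and 9.8% higher. All 3 K74R libraries were below all 3 WT libraries for 26 members, against 11.9% of all genes. The medians by complex were close together, from -0.23 in complexes III and IV to -0.17 in complex II.

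Uqcrq was 33.9, 36.5 and 43.8 CPM in WT against 30.0, 28.6 and 28.0 in K74R bone marrow. The genotypes did not overlap, and the log2 fold change was -0.38 (SE 0.11, adjusted p = 0.132). Ndufb9, an accessory subunit of complex I, was 29.7, 32.6 and 33.8 CPM in WT against 27.2, 25.5 and 20.9 in K74R (-0.37, SE 0.11, adjusted p = 0.159). Ndufa3, another accessory subunit, was 26.6, 35.9 and 32.5 CPM in WT against 25.9, 24.7 and 21.1 in K74R (-0.39, SE 0.13, adjusted p = 0.179). In each of these 3 genes all K74R libraries lay below all WT libraries, and none passed the threshold.

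Sdhd was 101, 89.8 and 108 CPM in WT against 79.4, 89.4 and 74.1 in K74R (-0.28, SE 0.09, adjusted p = 0.183). Cox5b, a zinc-binding subunit of complex IV, was 68.5, 69.1 and 83.0 CPM in WT against 63.2, 60.1 and 59.9 in K74R (-0.25, SE 0.09, adjusted p = 0.194). Atp5f1, of the peripheral stalk of ATP synthase, was 280, 281 and 348 CPM in WT against 259, 262 and 218 in K74R (-0.28, SE 0.10, adjusted p = 0.209). Uqcrb, which binds ubiquinone in complex III, had the lowest log2 fold change of all members, -0.42 (SE 0.15, adjusted p = 0.193), with 57.3, 62.3 and 80.3 CPM in WT against 49.2, 57.3 and 41.6 in K74R. The others with the smallest p-values of their complexes were Cox6b1 (-0.25, SE 0.10, adjusted p = 0.232), Atp5c1, the central gamma subunit (-0.21, SE 0.09, adjusted p = 0.245), and Sdhb, the iron-sulfur subunit (-0.21, SE 0.09, adjusted p = 0.276). Sdhc and Sdha had values of -0.13 and -0.11. WT library 3 was the highest of the 6 for Cox5b, Atp5f1 and Sdhd, and K74R library 3 the lowest. Without WT library 3 the median of the members was -0.13, and with every other library left out in turn it lay between -0.24 and -0.16. The members above 0 were Cox6a2 (0.56, SE 0.34, adjusted p = 0.422), Atp5s (0.19) and Cox7a2l (0.12, SE 0.12, adjusted p = 0.639).

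Beside these values, 12 neutrophil markers summed to between 35363 and 38257 CPM in WT and to between 29708 and 32274 CPM in K74R bone marrow. Of the 12, 2 had a log2 fold change above 0, and the median was -0.17. Csf3r went up, from 266 to 323 CPM in WT against 382 to 418 CPM in K74R. A list of 10 B cell markers summed to between 437 and 880 CPM in WT and to between 948 and 1364 CPM in K74R. None of either list was at 0 or called, and their part was not tested. Of 26 mitochondrial ribosomal proteins 1 had a log2 fold change above 0 (median -0.23), and of 14 import genes, 13 citrate cycle genes and 13 mitochondrially encoded genes none did (medians -0.24, -0.14 and -0.15), with none called. The 20 short housekeeping mRNAs had a median of -0.15 with 4 above 0. Among 17 biogenesis regulators 9 were above 0 (median 0.007), and of 7 cycling genes none was (median -0.15), with none called.

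In tumors, K74R against WT, 66 of 80 tested members had a log2 fold change above 0, where 48.9% of all genes were below 0. The median was 0.08, and none passed the threshold with edgeR, DESeq2 or limma-voom. Within groups, the library medians of the members' log2 CPM had an SD of 0.081, as large as this shift. The members are measured in the same libraries, so counts of members are not independent. Of all genes 0.0406% were called, all of them lower. At an unadjusted p under 0.05 there were 14 members higher and none lower, against 5.05% of all genes higher and 6.19% lower, and 18 had the K74R tumors above the WT tumors without overlap, against 7.3% of all genes. With the length and GC offsets the median was 0.01.

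Cox7a2 was 64.9, 64.1 and 65.3 CPM in WT against 70.3, 77.8 and 84.3 in K74R tumors. The genotypes did not overlap, with a log2 fold change of 0.27 (SE 0.08, adjusted p = 0.347). Ndufs4, an accessory subunit of the electron input arm of complex I, was 53.7, 63.1 and 61.1 CPM in WT against 67.4, 69.8 and 76.4 in K74R (0.28, SE 0.09, adjusted p = 0.35). Ndufa7 gave 0.24 (SE 0.08, adjusted p = 0.353), Cox6c 0.25 (SE 0.09, adjusted p = 0.376), Atp5g2 0.22 (SE 0.08, adjusted p = 0.384), Uqcrq 0.30 (SE 0.12, adjusted p = 0.406), Atp5j2 0.19 (SE 0.08, adjusted p = 0.425) and Uqcrfs1 0.16 (SE 0.07, adjusted p = 0.443). Cox6a2 had the largest value, 0.94 (SE 0.45, adjusted p = 0.476), with WT at 2.17, 2.12 and 3.39 CPM and K74R at 2.28, 3.95 and 8.40 CPM, and it was called only without a filter on low counts (adjusted p = 0.0298). The complex II genes lay around 0, from -0.07 for Sdha to 0.07 for Sdhd. The 13 mitochondrially encoded genes had a median of -0.27, with 5 above 0 and mt-Nd6 called lower. Macrophage markers summed to between 834 and 900 CPM in WT and to between 492 and 722 CPM in K74R tumors, with none called or at 0, and their part was not tested.

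Whether the genotype effect differed between tissues was tested with interaction contrasts in 1 model of all 16 libraries. For MSC against bone marrow 53 of 82 members were called higher and none lower, where 18.8% of all genes were called, 10.8% higher and 8.05% lower, and the median difference of log2 fold changes was 0.62. The called members were 20 of 37 in complex I, 3 of 4 in complex II, 6 of 8 in complex III, 9 of 16 in complex IV and 15 of 17 in complex V. For MSC against tumor 6 were called higher (Cox5b, Atp5g3, Ndufa4, Cox7b, Atp5mpl and Atp5k), where 10.6% of all genes were called, 6.46% higher and 4.14% lower, and the median was 0.34. For tumor against bone marrow none was called by edgeR or limma-voom, where edgeR called 0.0385% of all genes (0.011% higher and 0.0275% lower), with 25 members higher at an unadjusted p under 0.05, against 5.34% of all genes, and a median of 0.29.

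The model gives all tissues a common spread, while MSC replicates differed more than those of other tissues. With a spread for each tissue in limma-voom, 26 members were called higher for MSC against bone marrow and 2 for MSC against tumor, against 5.98% and 3.51% of all genes. Leaving out single libraries gave from 20 (without MSC K74R 1, 6.12% of all genes) to 64 (without MSC K74R 2, 12.5% of all genes) for MSC against bone marrow, with 30 without either WT MSC library, 32 without bone marrow WT 3 and 31 without bone marrow K74R 3. For MSC against tumor the count was 2 without MSC K74R 1, tumor WT 3 or tumor K74R 1, 3 without MSC WT 2, 4 without tumor WT 1 or tumor K74R 2, 10 without MSC WT 1, 11 without bone marrow WT 3 and 26 without MSC K74R 2, with 4.08% to 9.33% of all genes called higher in these fits. Cox5b had the smallest p, with log2 fold changes of 0.64 in MSC, -0.25 in bone marrow and -0.01 in tumor. The difference was 0.92 (SE 0.15, adjusted p = 0.000676) between MSC and bone marrow and 0.67 (SE 0.15, adjusted p = 0.00818) between MSC and tumor. Uqcrq had the smallest p between tumor and bone marrow, with a difference of 0.69 (SE 0.19, adjusted p = 0.236). Sdha showed the smallest difference of complex II between MSC and bone marrow, 0.13 (SE 0.14, adjusted p = 0.578), beside 0.83 (SE 0.15, adjusted p = 0.00214) for Sdhd. Cox4i2 and Ndufa4l2, both with few counts in bone marrow, did not pass, with adjusted p-values of 0.134 and 0.423.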

How the data were processed

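The labels' protocols name TRIzol for RNA and the KAPA mRNA HyperPrep kit for libraries. FastQC, MultiQC, Trimmomatic 0.38, HISAT2 2.1.0, featureCounts 1.6.0 and GRCm38 are listed in the submitters' processing notes. How multiply matching reads and strand were handled, and which annotation release was used, is not stated there. The authors deposited raw counts per gene for 16 libraries. From these counts CPM was computed by dividing by the library total times its TMM factor. The main test was edgeR 4.0.16 (quasi-likelihood, filterByExpr, default prior count, R 4.3.3) within each tissue for genotype, over the WT libraries for tissue, and over all 16 libraries for interactions. P-values were adjusted by Benjamini-Hochberg over all genes tested, at a threshold of 0.05, and each SE is the log2 fold change over the square root of the F statistic. DESeq2 1.42.0, limma 3.58.1, other scalings and filters, offsets for exon length and GC content, and leaving out each library were alternatives. The scripts were tested on simulated data. Lengths and coordinates are from GENCODE M21 on GRCm38. The members and gene lists were chosen with earlier results of these data known. Members are named with values where they passed the genotype threshold, had 1 of the 2 smallest p-values of their complex for genotype or the smallest in an interaction, had 1 of the 3 largest changes each way among members called between WT tissues, were highest or lowest per kilobase, or belong to a paralog set or complex II; other named members were chosen after their values were seen. The fits with a spread for each tissue, crossed replicate numbers, offsets between tissues, the replicate block and left-out libraries for interactions, and coding transcript lengths were added after seeing the data.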

Additional observations from a re-analysis of the deposited data

Results flagged for a closer look

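In the model of all 16 libraries, 82 members were tested with edgeR's interaction contrasts. For 53 the genotype effect in MSC was higher than in bone marrow, against 10.8% of all genes called higher. For 6 it was higher than in tumor, against 6.46% of all genes. With a spread for each tissue the counts were 26 and 2, against 5.98% and 3.51% of all genes. Both counts against tumor thus lie near the share of all genes. For MSC against bone marrow, the differences of log2 fold change among the named members were 0.92 for Cox5b, 1.39 for Cox7b, 1.47 for Ndufa4, 0.83 for Sdhd, 0.97 for Atp5g3, 1.16 for Atp5mpl, 0.97 for Uqcrq, 0.72 for Uqcrfs1 and 0.49 for Sdhc. For MSC against tumor they were 0.67 for Cox5b, 0.82 for Atp5g3, 0.95 for Ndufa4, 0.86 for Cox7b and 0.85 for Atp5mpl.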

How the results depend on the processing

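Counts of members in this section show how calls move between fits. Shares of all genes called are not repeated where given above, and for the other fits they are not given. Without that share a count is not read as an excess of members. The MSC comparisons rest on 2 libraries per genotype. For K74R against WT in MSC, members called higher numbered 1 in the fit reported, 7 with no filter, 7 with DESeq2, 43 in the single model of 16 libraries, 13 in limma-voom with a spread for each tissue, and 0 to 2 with single libraries left out. Whether replicate numbers pair the samples is not known. Correlations of deviations between WT and K74R libraries of the same number ran from 0.34 to -0.22. With 2 MSC libraries per genotype the deviations mirror each other, so the correlations cannot settle pairing there. In MSC the members called higher numbered 3 with the replicate block, 2 with block and offsets and 8 with crossed numbers. In bone marrow 3 members were called lower with no filter, and in tumor 1 was called higher. In bone marrow and tumor the replicate block gave 0 calls. For WT tumor against bone marrow, the members called lower were 19 with RLE scaling, 6 with library size alone, 6 with no filter, 17 with DESeq2 and 3 in the K74R libraries, and those called higher were 42 in the K74R libraries and 46 with offsets. The median was 0.29 with library size, 0.31 in the K74R libraries, 0.39 with offsets and 0.032 to 0.16 with single libraries left out. For MSC against bone marrow the median was -0.50 with upper quartile scaling, -0.37 with the replicate block, 0.16 in the K74R libraries, -0.0033 with offsets and -0.46 to -0.37 with single libraries left out. Its higher calls were 30 in the K74R libraries, 26 with offsets and 4 to 7 with single libraries left out, and its lower calls 5 and 25. For tumor against MSC the median was 0.63 with upper quartile scaling, 0.74 with library size, 0.16 in the K74R libraries and 0.36 with offsets. Its lower calls were 3 with library size, 13 in the K74R libraries and 11 with offsets, and its higher calls 23 in the K74R libraries. Interaction calls were 34 for MSC against bone marrow and 1 for tumor against bone marrow with no filter, 26 for MSC against bone marrow and 2 for MSC against tumor with a spread for each tissue, and 10 for MSC against tumor with offsets. With single libraries left out they were 20 to 64 for MSC against bone marrow and 2 to 26 for MSC against tumor. The summed CPM by library size was 4250 in WT MSC and 7646 in WT tumor. The log2 fold change of Cox7b in MSC against bone marrow was 0.18 in the K74R libraries. The cause of these shifts was not tested.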
